A study of Drosophila melanogaster with 12 samples.

Results

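The 200 most abundant long non-coding RNA genes of the adult fly head were described across flies carrying mouse TET2 transgenes and their driver control. Members were chosen by level: genes whose FlyBase symbol starts with lncRNA:CR were ranked on mean CPM (a gene's count over its library total, times 1000000) in 12 libraries, and the first 200 of 1873 such genes were kept, out of 17730 genes in the table. At the boundary, the last members, lncRNA:CR44603 and lncRNA:CR43988, had 0.599 and 0.584 CPM, and the first genes outside, lncRNA:CR44177 and lncRNA:CR45527, had 0.583 and 0.581 CPM. These 4 levels differ by less than the counting error. The level that chose the members is therefore a description here, and the genotype comparisons were tested on a fit of all genes.

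RNA came from heads of 1-day-old adults, males and females pooled, and 3 libraries were made for each of 4 groups. The mTET2-wt flies carried wild type mouse TET2, the mTET2-R43G flies a form with a substitution in the amino-terminal part, and the mTET2-R1261C flies a form with a substitution in the catalytic domain. Each transgene was driven by Tet-Gal4, that is in cells that use the promoter of the fly Tet gene, and the control flies (W1118;Tet-Gal4) carried the same driver without a transgene. The 3 transgenes share a landing site on chromosome arm 2R and the stock it came from, which the control lacks, so transgene expression and genetic background cannot be told apart in any comparison with control. Each mTET2 group is also a fly line of its own. Between mTET2 groups, the substitution and other differences between the lines cannot be told apart. Nothing in the labels says that the libraries of a group came from separate crosses, so p-values measure the spread between these libraries.

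TET enzymes oxidise methylcytosine to hydroxymethylcytosine. In flies, whose DNA carries very little methylcytosine, the substrates studied are methylcytosine in RNA and methyladenine in DNA. Long non-coding RNAs are transcripts without a long open reading frame. Some serve as the precursor from which a microRNA hairpin is cut, some lie antisense to a coding gene, and many stand alone between genes with no known role. The CR symbols are serial annotation numbers and carry no functional meaning. No sequences were printed because no genome of the files' build was used here.

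Library totals lay between 15894383 and 19434046 counted read pairs, ribosomal RNA genes took 2.19% to 7.31% of them, and the members took 0.493% to 0.618%. Head markers were abundant in every library, with photoreceptor genes at 25074 to 35470 summed CPM and neuronal genes at 2870 to 3952, while testis markers (1 of 6 at 0 in every library) summed to at most 0.5 CPM and ovary markers to at most 0.6. Digestive enzymes of the midgut, 9 of 9 detected, summed to 71.7 to 1915 CPM in mTET2-wt heads, 54.6 to 88.4 in mTET2-R43G heads and 58.8 to 167 in mTET2-R1261C heads, against 14.9 to 145 in control. The value of 1915 CPM was in mTET2-wt replicate 3. Glial markers (1 of 5 at 0 in every library) summed to 1378 to 1509 CPM in mTET2-wt heads, 1295 to 1402 in mTET2-R43G heads and 1526 to 1746 in mTET2-R1261C heads, against 1627 to 2002 in control, so that the first 2 ranges lay below control. Fat body markers, 7 of 7 detected, summed to 34921 to 45224 CPM in mTET2-wt heads, 21344 to 42887 in mTET2-R43G heads and 31028 to 54357 in mTET2-R1261C heads, against 30676 to 69147 in control. In adult brains stained for Repo the study counted more glial cells than in control in mTET2-wt and mTET2-R43G flies, but not mTET2-R1261C flies. That is a count of cells in the brain, while the marker sums are RNA of whole heads, and the measures are unlike. The part of these tissues in the results was not tested, and from RNA alone fewer cells of a type cannot be told apart from less RNA per cell.

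The level of these RNAs was concentrated in very few genes. lncRNA:CR42862 alone averaged 3037 CPM, which was 53.9% of the summed level of the 200, and the first 15 held 85.9%. Only 8 members reached 100 CPM, 35 reached 10 CPM and 148 reached 1 CPM, and the median member was at 2.20 CPM. Every member passed the filter on low counts, with at least 124 counts over the 12 libraries, but at rank 200 a library held 10.3 counts on average, for which counting error alone is 31.1%. The biological coefficient of variation that edgeR estimated had a median of 12.5% for the first 50 members and 23.6% for the others, against 13.5% for all genes tested.

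**Figure D1:**
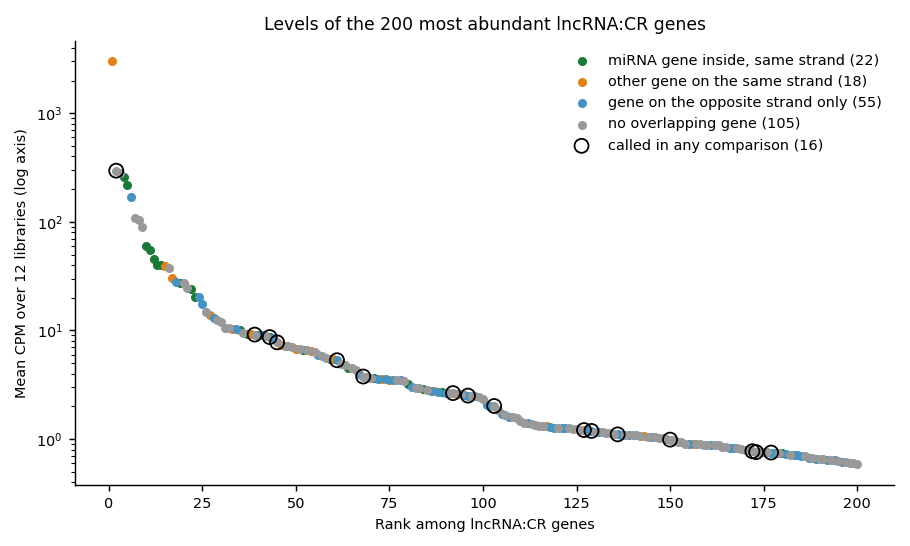
Mean CPM of each member over 12 libraries (log axis) against its rank; colours give the position relative to other genes and rings mark the 16 members called in any comparison. One gene stands at 3037 CPM and the median at 2.20 CPM.

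lncRNA:CR42862 lies at positions 224106 to 230964 of chromosome arm 3L (dm6 build of the fly genome) and shares part of its strand with the gene CG33229. It had 3017, 3308 and 3342 CPM in mTET2-wt heads, 3337, 3599 and 2784 CPM in mTET2-R43G heads and 2367, 2842 and 3427 CPM in mTET2-R1261C heads, against 3096, 2952 and 2369 CPM in control. The groups overlapped, and log2 fold changes against control were 0.21, 0.24 and 0.04 with adjusted p of 0.53, 0.31 and 0.96 (edgeR quasi-likelihood test, Benjamini-Hochberg over 12433 genes). The other members summed without it and without the microRNA precursors to 1460 to 1529 CPM in mTET2-wt heads, 1518 to 1615 in mTET2-R43G heads and 1687 to 1902 in mTET2-R1261C heads, against 1938 to 2402 in control. The control libraries were the highest, and lncRNA:CR40469, described below, accounted for 496 to 964 CPM of their sums. That gene accounted for 10.4 to 12.5 CPM in mTET2-wt heads, 11.6 to 151 in mTET2-R43G heads and 178 to 523 in mTET2-R1261C heads. With it left out as well, the control sums would not be the highest.

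**Figure D2:**
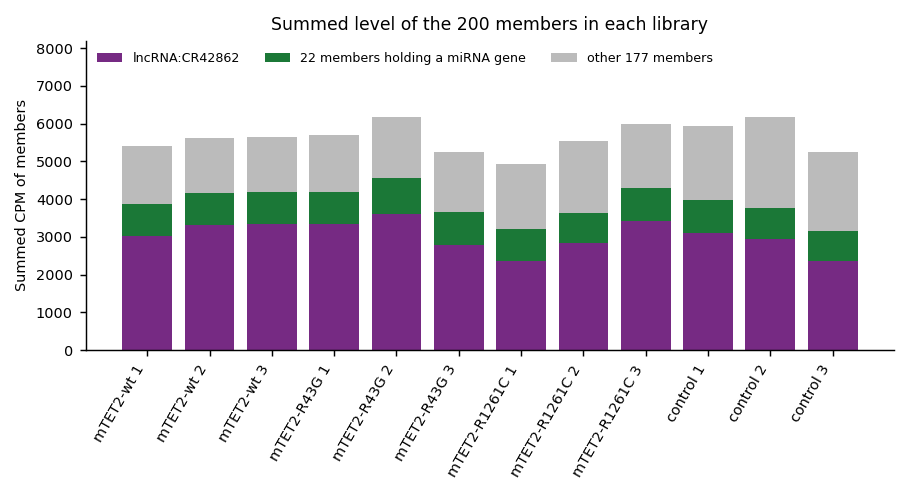
Summed CPM of the 200 members in each library, split into lncRNA:CR42862, the 22 members that hold a microRNA gene and the remaining members. Totals run from 4932 to 6179 CPM and overlap between the 4 groups.

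Scaled to gene length, the order was different. lncRNA:CR40469, of 214 bases, came first at 1383 CPM per kilobase, followed by lncRNA:CR42862 at 443, lncRNA:CR44922 at 43.2, lncRNA:CR44832 at 42.3 and lncRNA:CR45054 at 39.4, and the median member was at 1.50 CPM per kilobase. Of the 200, 148 would also be among the first 200 when ranked per kilobase. Members spanned up to 239347 bases with a median of 1342, against a median of 625 for the 1673 lncRNA:CR genes ranked lower, and since reads were counted over whole gene spans, long genes with introns have an advantage in a rank on CPM. On chromosome 4, 7 of 12 lncRNA:CR genes were members, against 38 of 229 on the X and 38 of 510 on arm 2L.

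Members differed in how they sit among other genes. On their own strand 40 members overlapped another gene, 22 of them a microRNA gene, 55 overlapped a gene on the opposite strand only, and 105 overlapped none. Another gene on the same strand ended less than 1 kb upstream of 40 members, so that reads running past the end of that gene could be counted there, and 1 of the 16 members called in any comparison was among these 40.

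The 22 members with a microRNA gene inside them on the same strand were grouped after their annotation had been seen. They made up 11% of the members, while 8 of the 1673 lower lncRNA:CR genes (0.478%) held one. Their mean levels summed to 856 CPM, and 7 of the first 15 members were of this kind. lncRNA:CR43459 holds mir-277, known for control of branched-chain amino acid breakdown, and mir-34, known from brain ageing in flies. It averaged 245 ± 12 CPM in mTET2-wt heads, 286 ± 32 in mTET2-R43G heads and 259 ± 11 in mTET2-R1261C heads, against 246 ± 16 in control (SD, n = 3 each). lncRNA:CR46006, the precursor of mir-276a, averaged 228 ± 3.9, 228 ± 19 and 219 ± 10 CPM in the wt, R43G and R1261C mTET2 groups, against 190 ± 16 CPM in control, and its smallest adjusted p was 0.056, in mTET2-R43G heads. The transcripts that hold mir-8, a regulator of growth, mir-ban (bantam), which promotes growth and represses cell death, mir-14 and the neural mir-124 averaged 23.4 to 64 CPM in the mTET2 groups, against 24 to 61 CPM in control.

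Of these 22, only lncRNA:CR44909 passed the test. The other 21 had log2 fold changes relative to control between -0.46 and 0.72 in mTET2-wt heads, -0.71 and 0.44 in mTET2-R43G heads and -0.30 and 0.24 in mTET2-R1261C heads, with standard errors of 0.08 to 0.63. None passed in any of the 6 comparisons even without a minimum fold change (edgeR). The 95% intervals of these differences relative to control passed -1 or 1 for 3 of the 21: lncRNA:CR45345 (up to 2.03 in mTET2-wt heads, -1.08 to 1.61 in mTET2-R43G heads and -1.35 to 1.39 in mTET2-R1261C heads), lncRNA:CR43857 (down to -1.23 in mTET2-R43G heads) and lncRNA:CR43836 (up to 1.06 in mTET2-R43G heads). The microRNA genes themselves had 0 counts, since pairs that overlapped more than 1 gene were left out and the libraries do not hold small RNA, and mature microRNAs were not measured.

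**Figure D3:**
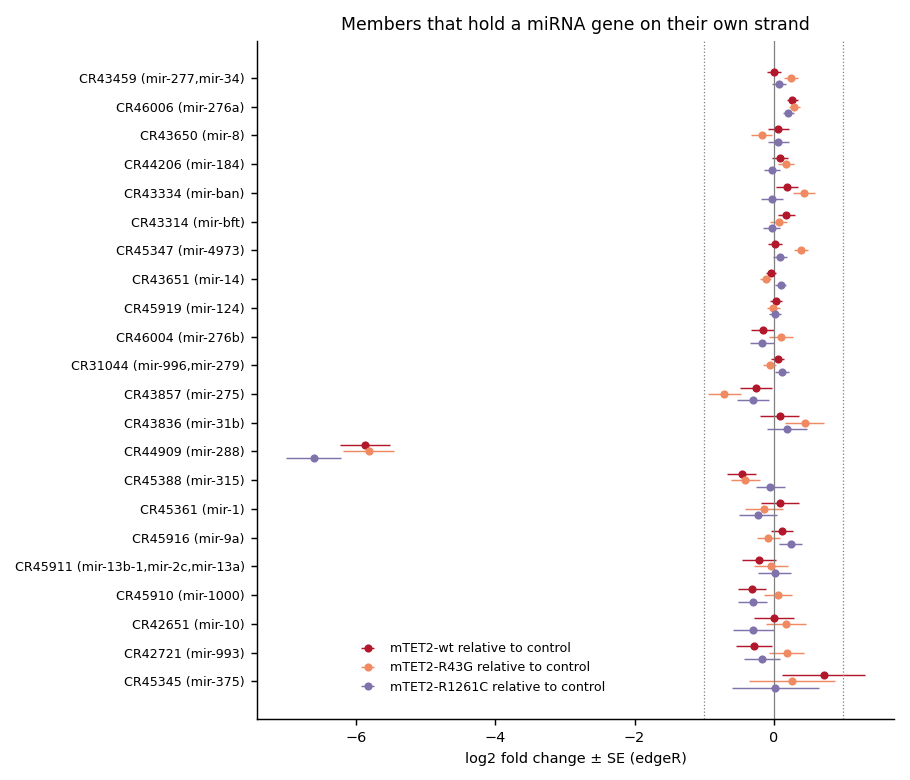
Log2 fold change ± SE relative to control of the 22 members that hold a microRNA gene on their own strand, in order of level, with dotted lines at -1 and 1. lncRNA:CR44909 lies at -5.88, -5.82 and -6.62, and the points of the other 21 lie within the dotted lines. The bar of lncRNA:CR45345 in mTET2-wt heads crosses the line at 1.

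Genes with an adjusted p no higher than 0.05 and a log2 change of 1 or more in either direction were called. In mTET2-wt relative to control 4 members rose and 5 fell, beside 0.732% and 0.467% of all 12433 genes tested. In mTET2-R43G 7 rose and 5 fell, beside 0.732% and 0.611%. In mTET2-R1261C 4 rose and 5 fell, beside 0.442% and 0.306%. Over the members these counts are 2% to 3.5%. The 3 comparisons share the control libraries, and 6 of the 16 members called in any comparison would not be among the first 200 on the control libraries alone: they were in the list partly through the groups where they were high. Ranked on control libraries, 8, 7 and 8 of the first 200 were called in the wt, R43G and R1261C mTET2 groups, of which 2, 2 and 3 rose and 6, 5 and 5 fell. That ranking in turn favours genes that are high in control, and so genes that fall. The split between rises and falls thus depends on how the list was ranked, and gives no direction for the members. The median log2 fold change of the members was 0.06, 0.15 and 0.02, beside 0.00, -0.01 and -0.01 for all genes tested.

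**Figure D4:**
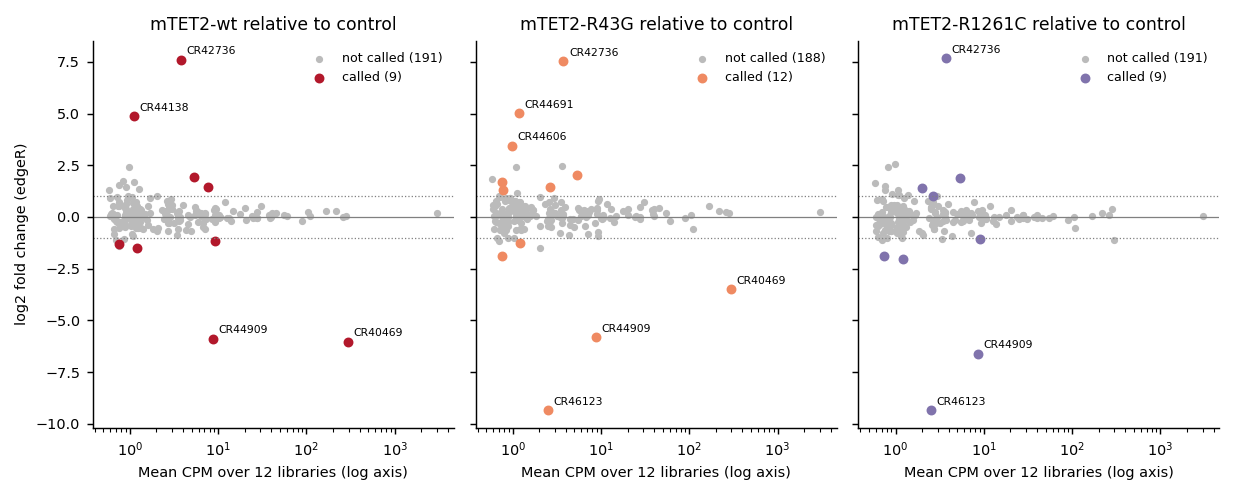
Log2 fold change of each member relative to control (edgeR) against mean CPM (log axis), 1 panel for each mTET2 group, with called members coloured. lncRNA:CR44909 is low and lncRNA:CR42736 high in all 3 panels, and lncRNA:CR46123, with 0 counts in both mutants, lies lowest in their panels, where its fitted value is no bound.

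Called in the same direction in all 3 mTET2 groups were 2 members that rose and 3 that fell, beside 0.201% and 0.225% of all genes tested. The split turned with the setting: 4 rose and 1 fell without control replicate 1, 3 rose and 2 fell by DESeq2, and 2 rose and 1 fell without any one mTET2-wt replicate or without control replicate 2 or 3. lncRNA:CR44909 fell furthest of the 3. It spans positions 20583656 to 20626206 of arm 2L, holds mir-288 on its own strand and mir-133, a relative of a vertebrate muscle microRNA, on the other. It had 0.47, 0.72 and 0.474 CPM in mTET2-wt heads, 0.846, 0.665 and 0.187 CPM in mTET2-R43G heads and 0.252, 0.123 and 0.592 CPM in mTET2-R1261C heads, against 38.8, 29.5 and 31.6 CPM in control. Every mTET2 library was below 1 CPM and every control library above 29 CPM. The log2 fold changes were -5.88 ± 0.36, -5.82 ± 0.36 and -6.62 ± 0.39 (SE), with adjusted p of 1.54e-05, 7.38e-06 and 3.96e-06 (edgeR). Without mTET2-R1261C replicate 3 the last fold change was -7.40. Its neighbour lncRNA:CR45347, 7936 bases away, averaged 37.3, 47.1 and 38.9 CPM in the wt, R43G and R1261C mTET2 groups, against 36.9 CPM in control, and was not called.

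lncRNA:CR44980, at 20464502 to 20484702 of the same arm, had 1.06, 0.772 and 0.738 CPM in mTET2-wt heads, 1.15, 0.554 and 1.24 CPM in mTET2-R43G heads and 0.629, 0.553 and 0.592 CPM in mTET2-R1261C heads, against 2.54, 2.38 and 2.3 CPM in control. No mTET2 library reached the lowest control library. Its log2 fold changes were -1.49, -1.26 and -2.01, and the first of these lost its call without any one of the 6 libraries compared (adjusted p 0.052 to 0.106). The second lost its call without mTET2-R43G replicate 1 or 2 or any control replicate (adjusted p 0.0606 to 0.118), and the third held throughout. On the opposite strand lncRNA:CR45361, which holds the muscle microRNA gene mir-1, was not called in any group. lncRNA:CR44851, antisense to the GTPase gene Rab14, had 0.704, 0.617 and 0.527 CPM in mTET2-wt heads, 0.483, 0.499 and 0.249 CPM in mTET2-R43G heads and 0.503, 0.369 and 0.377 CPM in mTET2-R1261C heads, against 1.54, 1.62 and 1.51 CPM in control. No mTET2 library overlapped control, and log2 fold changes were -1.33, -1.87 and -1.88. The mTET2-wt call was lost without any one of the 6 libraries (adjusted p 0.0957 to 0.151) and under 5 alternative settings, DESeq2 among them (0.0506 to 0.0802), the mTET2-R1261C call without mTET2-R1261C replicate 2 or control replicate 1 or 2 (0.0517 to 0.0611). Rab14 itself was not called.

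lncRNA:CR42736 was the member with the highest rise. It lies at 18377487 to 18378196 of arm 2R, 20.2 kb from the landing site that the study's methods give for the transgenes, between sbb and BomT1, a gene of the Bomanin family of immune-induced peptides. It had 4.64, 5.76 and 4.69 CPM in mTET2-wt heads, 5.2, 4.32 and 4.67 CPM in mTET2-R43G heads and 4.09, 5.53 and 6.19 CPM in mTET2-R1261C heads, against 0, 0 and 0.0561 CPM in control. All control libraries together held 1 count, in replicate 3, while the mTET2 groups held 280, 239 and 270. The ratios were 269 (95% counting interval 47.9 to 10654) in mTET2-wt heads, 251 (44.6 to 9959) in mTET2-R43G heads and 283 (50.4 to 11231) in mTET2-R1261C heads, with adjusted p of 1.24e-05, 4.8e-06 and 3.68e-06 (edgeR). BomT1 averaged 11.9, 8.14 and 6.52 CPM in the wt, R43G and R1261C mTET2 groups, against 1.79 CPM in control, and its adjusted p were 0.056, 0.079 and 0.26. Of the 4 members within 1000 kb of the landing site, 2 were called in any comparison, beside 13 of all 260 genes tested there (5%).

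lncRNA:CR44043, at 1368921 to 1371468 of arm 2R and antisense to l(2)41Ab, had 6.4, 6.33 and 6.59 CPM in mTET2-wt heads, 6.65, 7.65 and 6.1 CPM in mTET2-R43G heads and 6.29, 5.9 and 6.79 CPM in mTET2-R1261C heads, against 2.13, 1.03 and 1.96 CPM in control. The mTET2 libraries lay close together and all above control, with log2 fold changes of 1.91, 2.02 and 1.89, each ± 0.22 (SE), and adjusted p of 0.00109, 0.000752 and 0.0011 (edgeR). The gene on the other strand, l(2)41Ab, averaged 52.4, 57.7 and 52.9 CPM in the wt, R43G and R1261C mTET2 groups, against 41.5 CPM in control, and was not called.

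**Figure D5:**
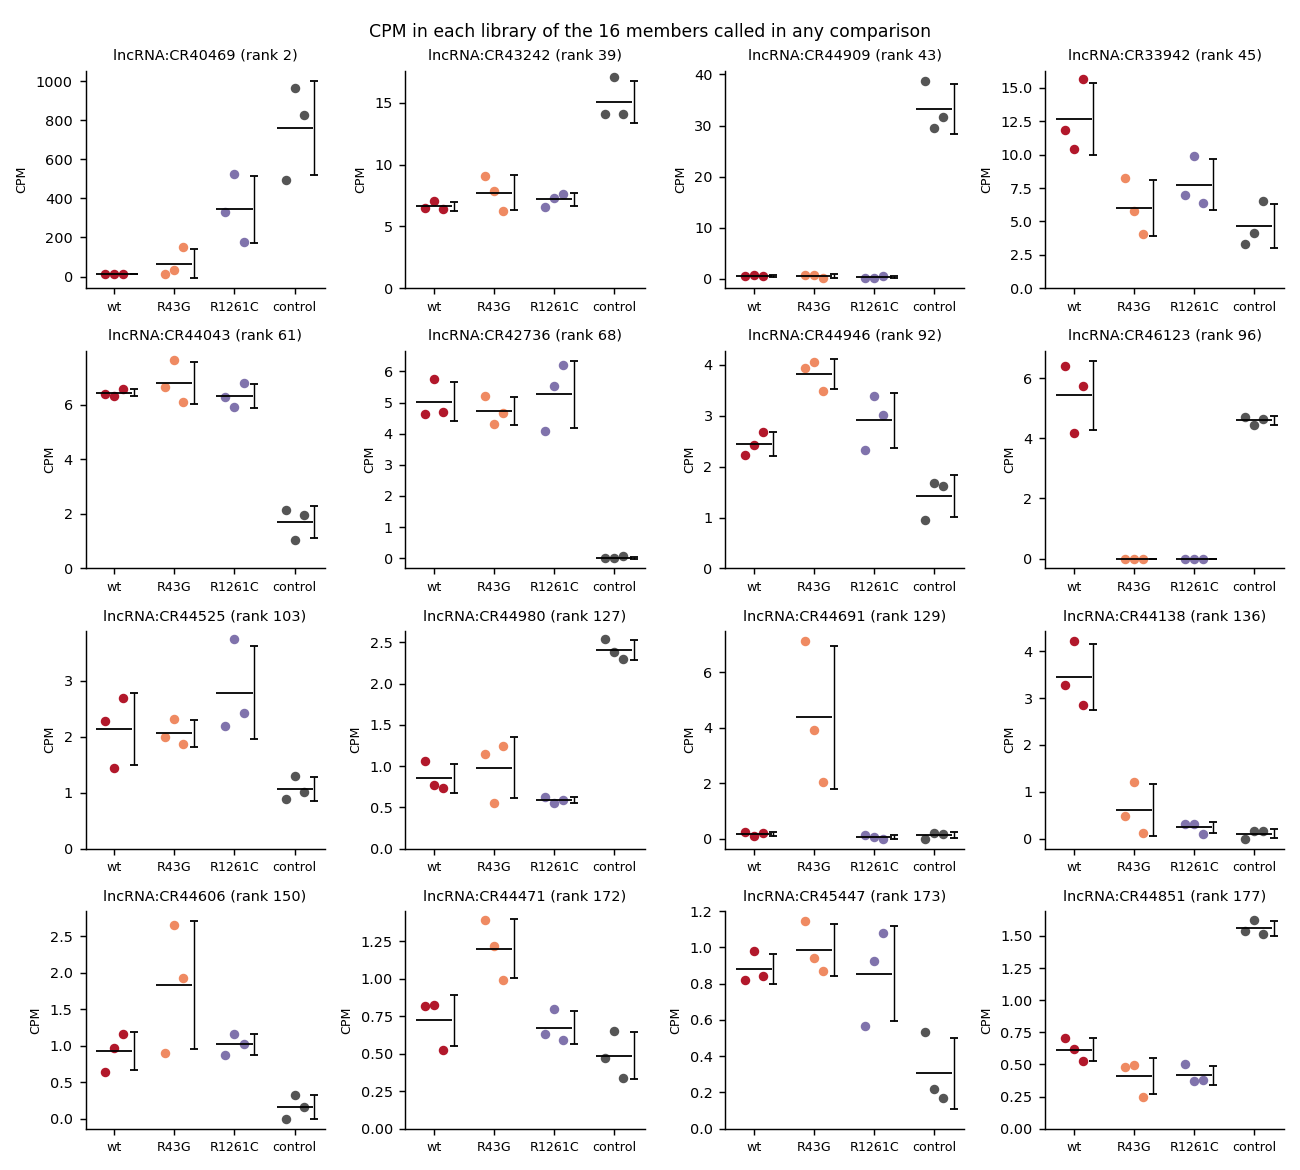
CPM in each library of the 16 members called in any comparison, with the group mean (line) and SD (bar) on a linear axis from 0 for each gene. lncRNA:CR46123 is at 0 in all 6 mutant libraries, lncRNA:CR44691 is high in mTET2-R43G heads, and lncRNA:CR44138 in mTET2-wt heads.

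lncRNA:CR46123 separated the mutants from the other groups. It is a gene of 368 bases at 1366234 to 1366601 of arm 3R, antisense to the myosin gene Myo81F. It had 0 CPM in every mTET2-R43G and mTET2-R1261C library, against 6.4, 4.17 and 5.74 CPM in mTET2-wt heads and 4.72, 4.44 and 4.65 CPM in control. Against a floor of 3 counts over the group, the level was at least 77.7-fold lower in mTET2-R43G heads and at least 77.8-fold lower in mTET2-R1261C heads than in control (adjusted p 0.000153 and 0.000114, edgeR). Relative to mTET2-wt it was at least 91.1-fold lower in mTET2-R43G heads and at least 91.2-fold lower in mTET2-R1261C heads (adjusted p 0.000575 and 0.000372). Myo81F averaged 1840 CPM in mTET2-wt heads, 1658 in mTET2-R43G heads and 1614 in mTET2-R1261C heads, against 1608 CPM in control, and was not called.

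Between the mTET2 groups few members were called. In mTET2-R43G relative to mTET2-wt 1 rose and 1 fell, beside 0.0402% of all genes tested in each direction. In mTET2-R1261C relative to mTET2-wt 1 rose and 1 fell, beside 0.0965% and 0.0483%. In mTET2-R1261C relative to mTET2-R43G none rose and 1 fell, beside 0.0563% and 0.0161%. An unadjusted p under 0.05 was found for 24, 17 and 27 members (12%, 8.5% and 13.5%) in these 3 comparisons, beside 1226, 824 and 1612 of all 12433 genes tested (9.86%, 6.63% and 13%). By DESeq2 the 3 counts were 3, 3 and 0.

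lncRNA:CR44691, antisense to CG6398 on the X, was high in one group only. It had 7.13, 3.93 and 2.05 CPM in mTET2-R43G heads, 0.235, 0.103 and 0.211 CPM in mTET2-wt heads and 0.126, 0.0615 and 0 CPM in mTET2-R1261C heads, against 0, 0.217 and 0.168 CPM in control. The log2 fold change in mTET2-R43G heads was 5.02 ± 0.71 relative to control (adjusted p 0.00367) and 4.56 ± 0.68 relative to mTET2-wt (adjusted p 0.029, edgeR). In mTET2-R1261C relative to mTET2-R43G the counts were 3 and 222, a ratio of 74.1 (95% counting interval 25 to 362) in favour of mTET2-R43G. The call relative to mTET2-wt was lost without any mTET2-wt replicate or mTET2-R43G replicate 1 or 2 (adjusted p 0.0868 to 0.152), and that between the mutants without any mTET2-R1261C replicate or mTET2-R43G replicate 1 or 2 (0.0552 to 0.149). The fitted log2 fold change between the mutants was -6.97 without mTET2-R1261C replicate 1 and -5.44 without its replicate 3. CG6398 was not called.

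lncRNA:CR40469, the second member by level, varied most. It lies at 122493 to 122706 near the tip of the X. It had 12.5, 10.4 and 12.2 CPM in mTET2-wt heads, 11.6, 33.5 and 151 CPM in mTET2-R43G heads and 332, 523 and 178 CPM in mTET2-R1261C heads, against 496, 964 and 828 CPM in control. The mTET2-R43G libraries ranged from 11.6 to 151 CPM, and the mTET2-R1261C libraries overlapped control. The log2 fold change was -6.02 ± 0.85 in mTET2-wt heads (adjusted p 0.00377), -3.49 ± 0.74 in mTET2-R43G heads (0.0271) and -1.14 in mTET2-R1261C heads (0.58, edgeR), and 4.89 ± 0.81 in mTET2-R1261C relative to mTET2-wt (0.0422). The mTET2-R43G call was lost without mTET2-R43G replicate 2 or control replicate 2 or 3 (adjusted p 0.0686 to 0.108), with a fold change of -5.06 without mTET2-R43G replicate 3, and the last call without any mTET2-wt replicate or mTET2-R1261C replicate 1 or 2 (0.129 to 0.189). The mTET2-wt call held without each library.

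lncRNA:CR44138, at 13376903 to 13377395 of arm 3R and antisense to CG9813, rose in mTET2-wt heads. It had 3.29, 4.22 and 2.84 CPM in mTET2-wt heads, 0.483, 1.22 and 0.124 CPM in mTET2-R43G heads and 0.315, 0.307 and 0.108 CPM in mTET2-R1261C heads, against 0, 0.162 and 0.168 CPM in control. The log2 fold change in mTET2-wt heads was 4.87 ± 0.76 (adjusted p 0.00633, edgeR), and that in mTET2-R43G heads was 2.41 (0.111). CG8870, whose nearest edge lies 2447 bases away, averaged 12.9 CPM in mTET2-wt heads, 2.78 in mTET2-R43G heads and 0.837 in mTET2-R1261C heads, against 0.336 CPM in control. It was the only one of 26 tested neighbours of called members that was itself called, beside 249 of all 12433 genes tested called in any comparison. Its log2 fold changes relative to control were 5.24 in mTET2-wt heads (adjusted p 0.000286) and 3.05 in mTET2-R43G heads (0.00908, edgeR). In mTET2-R1261C relative to mTET2-wt it was called at -3.94 (0.00315).

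lncRNA:CR33942, reported in flies to raise the expression of antimicrobial peptides, had 11.9, 10.4 and 15.6 CPM in mTET2-wt heads, 8.22, 5.76 and 4.05 CPM in mTET2-R43G heads and 6.98, 9.9 and 6.41 CPM in mTET2-R1261C heads, against 3.31, 4.12 and 6.51 CPM in control. The gene lies on arm 2R, 354 kb from the landing site of the transgenes, and is the other called member within 1000 kb of that site. All mTET2-wt libraries were above control, while the mutant libraries overlapped it. The log2 fold change in mTET2-wt heads was 1.44 ± 0.30 (adjusted p 0.0277, edgeR), and the call was lost without any mTET2-wt replicate or control replicate 1 or 2 (0.0588 to 0.129). It was also lost with the replicate number as a block (0.0614).

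lncRNA:CR43242, on arm 2L next to the splicing factor gene Spf45, averaged 6.63 ± 0.368 CPM in mTET2-wt heads, 7.74 ± 1.39 in mTET2-R43G heads and 7.19 ± 0.532 in mTET2-R1261C heads, against 15.1 ± 1.73 CPM in control (SD, n = 3 each). No mTET2 library overlapped control. It was called in mTET2-wt heads and mTET2-R1261C (log2 fold changes -1.18 and -1.06). In mTET2-R43G it had -0.93 at an adjusted p of 0.0023 (edgeR), short of the minimum fold. Without control replicate 2 the mTET2-R1261C value was -0.99.

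The remaining 5 called members rose and had low levels. lncRNA:CR44946 averaged 2.45 CPM in mTET2-wt heads, 3.82 in mTET2-R43G heads and 2.91 in mTET2-R1261C heads, against 1.42 CPM in control, and was called in mTET2-R43G heads (log2 fold change 1.46) and mTET2-R1261C (1.03). The second call was lost without any one of the 6 libraries (adjusted p 0.053 to 0.133). lncRNA:CR44525 averaged 2.14, 2.06 and 2.79 CPM in the wt, R43G and R1261C mTET2 groups, against 1.06 CPM in control, and was called in mTET2-R1261C heads (1.39), a call lost without mTET2-R1261C replicate 1 or 2 or any control replicate (0.0591 to 0.128). lncRNA:CR44606 averaged 0.927, 1.83 and 1.02 CPM in the wt, R43G and R1261C mTET2 groups, against 0.164 CPM in control, and was called in mTET2-R43G heads (3.44), a call lost without mTET2-R43G replicate 2 or control replicate 3 (0.0603 to 0.0644). Without control replicate 2 its fold change was 4.31. lncRNA:CR44471 averaged 0.724, 1.2 and 0.674 CPM in the wt, R43G and R1261C mTET2 groups, against 0.486 CPM in control, and lncRNA:CR45447 averaged 0.881, 0.987 and 0.855 CPM, against 0.305 CPM in control. Both were called in mTET2-R43G heads (1.33 and 1.71). The first call was lost without any one of the 6 libraries (0.0678 to 0.163), the second without any mTET2-R43G replicate or control replicate 2 or 3 (0.075 to 0.156), and its fold change was 2.35 without control replicate 1.

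By chromosome, 6 of the 38 members on arm 2L were called in any comparison, 3 of 34 on 2R, 1 of 43 on 3L, 3 of 40 on 3R, 3 of 38 on the X and none of 7 on chromosome 4. Among all genes tested the share called in any comparison was 1.99% on 2L, 2.16% on 2R, 1.96% on 3L, 2.02% on 3R and 1.91% on the X. Of 5 members in the megabase of arm 2L that holds lncRNA:CR44909, an interval chosen after the values were seen, 3 were called: lncRNA:CR44909, lncRNA:CR44980 and lncRNA:CR44606. The share of all genes called in that interval was not computed, so the count has no background and does not show a local cluster.

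The counts of called members moved with single libraries. In mTET2-wt relative to control 9 calls became 6 without mTET2-wt replicate 2 or 3 or without control replicate 2. In mTET2-R43G relative to control 12 calls became 7 without mTET2-R43G replicate 2 or without control replicate 3, and in mTET2-R1261C relative to control 9 became 5 without control replicate 2.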

How the data were processed

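Per the file headers, the authors counted read pairs over whole gene spans with featureCounts 1.6.0 in reverse-stranded mode, after HISAT2 2.1.0 alignment to release 6.28 of the fly genome, and deposited raw counts for 17730 genes (the submitters' processing notes name featureCounts 2.0.1). Multi-mapping pairs, and those overlapping more than 1 gene, were not counted. Symbols came from the reference gene name tables, which named 17632 IDs, and 198 of the 200 members had the same coordinates in a later Ensembl annotation. Members and gene lists were chosen with earlier results of these data known. Levels are CPM computed from the counts, and fold changes come from 1 edgeR 4.0.16 quasi-likelihood fit of 4 groups (R 4.3.3, TMM scaling, genes with at least 10 counts in all). The fit was tested on simulated data. Alternatives included DESeq2 1.42.0, other filters and scalings, and each library left out. Counting intervals cover counting error only. Named genes were the first 15 members, every called member with its overlapping and adjacent genes within 10 kb, the boundary ranks and 6 symbols chosen from earlier reports. Of these, lncRNA:CR46018 and lncRNA:CR11538 matched no gene under the symbols used here. A promoter motif search was not run, for lack of a genome sequence here.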

Additional observations from a re-analysis of the deposited data

How the results depend on the processing

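No single-gene value changed sign under any alternative, and 20 of 35 calls were kept under every setting and with every library left out, 24 of 35 under every setting. Counts relative to control moved for mTET2-R43G (12 calls) to 7 with only the 6 libraries compared, 20 without a minimum fold change, and 7 with members ranked per kilobase or on control libraries. Leaving out 1 library gave 7 to 11 in mTET2-R43G heads, 6 to 8 in mTET2-wt heads and 5 to 8 in mTET2-R1261C relative to control. Between groups it gave 1 to 2 in mTET2-R43G heads and in mTET2-R1261C relative to mTET2-wt, and 0 to 2 in mTET2-R1261C relative to mTET2-R43G. In mTET2-R43G relative to mTET2-wt the 2 calls became 1 with only the 6 libraries or with members ranked per kilobase or on control libraries. In mTET2-R1261C relative to mTET2-R43G the 1 call became 0 by DESeq2, with only the 6 libraries, or ranked per kilobase or on control libraries. The 5 members called in all 3 groups became 3 with no filter on low counts, with only the 6 libraries, or with no same-strand overlap, 2 ranked per kilobase, and 3 to 5 with a library left out. The fewer members or libraries in these sets apart, the cause was not tested. With the replicate number as a block, 7, 9 and 7 members were called in the wt, R43G and R1261C mTET2 groups relative to control, and 3 in all 3 groups. Deviations of same-numbered libraries correlated between -0.21 and 0.20. Libraries of unlike number were not compared in this way, so these values cannot decide whether the numbers pair the samples. For members near rank 200, about 10 counts a library limit what could be detected. DESeq2 gave no adjusted p for 1 of the 35 calls, lncRNA:CR44691 between the mutants.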

Other observations

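Beyond the called members, 8 members passed an adjusted p of 0.05 in a comparison with control with an absolute log2 fold change under 1 and were called in none (edgeR), which is 4% of the members, beside 3.42% of all genes tested. Several are among the most abundant. lncRNA:CR45054, which lies beside the mir-277 and mir-34 precursor, averaged 332 CPM in mTET2-R1261C heads, against 253 CPM in control (log2 fold change 0.40, adjusted p 0.0073). lncRNA:CR44922 averaged 85.5 CPM in mTET2-R43G heads and 88.9 CPM in mTET2-R1261C heads, against 129 CPM in control, with log2 fold changes of -0.56 and -0.53, while in mTET2-wt heads it averaged 132 CPM. The X-linked lncRNA:CR44997 averaged 207 CPM in mTET2-R43G heads, against 144 CPM in control (0.55, adjusted p 0.038).

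Among the lncRNA:CR genes ranked below 200 and tested, 492 in number, 4, 2 and 1 were called in the wt, R43G and R1261C mTET2 groups relative to control. These are 0.813%, 0.407% and 0.203% of them, beside 1.20%, 1.34% and 0.748% of all genes tested. All of these lower genes average 0.583 CPM or less, and such low counts limit what could be called. The lower shares therefore do not show that these genes changed less. lncRNA:CR32730 was at rank 448 with 0.131 CPM.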
